A study of Mus musculus with 12 samples.

Results

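Cd14, the Toll-like receptor genes and their adaptors were described in auditory cortex from acute mouse brain slices. The 9 genes were Cd14, Ly96, Tlr2, Tlr3, Tlr4, Tlr7, Tlr9, Myd88 and Ticam1, taken by symbol from the 20989 loci of the deposited expression files. The set was put together with the change between cocktail and control slices already known, so that change is given for these genes as a description. Bulk RNA sequencing was done on 12 libraries from 6 mice of the strain C57bl6/J, 4 weeks old. From each mouse, 1 brain hemisphere went to each of the 2 groups, and each library holds the auditory cortex dissected from it.

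All hemispheres were handled alike up to the treatment. Coronal slices of 350 µm recovered for 15 min in a choline chloride buffer, were cut along the midline and rested for 45 min in artificial cerebrospinal fluid (aCSF). The control hemisphere of each mouse (n = 6) was then kept in fresh aCSF for 1 h. The complementary hemisphere (n = 6) was kept for 1 h in cocktail aCSF, which held 50 µM bicuculline methiodide, 100 µM norepinephrine, 50 µM carbamoylcholine, 100 µM dopamine, 40 µM ascorbic acid and 100 µM serotonin. Both then rested for a further 1 h in aCSF without drugs. Bicuculline blocks GABA-A receptors, and norepinephrine, carbamoylcholine, dopamine and serotonin act on modulatory receptors. All agents were given together, so their parts cannot be told apart. Slicing injures tissue, and control and cocktail hemispheres shared it.

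Toll-like receptors bind molecules of microbes or of damaged cells and pass the signal to NF-kB and to interferon regulatory factors. Cd14 is a surface protein that captures lipopolysaccharide and hands it to Tlr4 and its partner MD-2, the product of Ly96. Myd88 is the adaptor used by most of these receptors, whereas Ticam1, also called TRIF, serves Tlr3 and the internalised Tlr4. In brain, most of these genes are known chiefly from microglia, the resident macrophages of the tissue.

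Levels are given in FPKM, fragments scaled by transcript length and by sequencing depth, which allow comparison between genes. The reads behind each value were recovered from the deposited intervals and summed to between 10601067 and 19768881 per control library and between 13544813 and 17643462 per cocktail library. One library stood apart: the control of mouse 1 had a median chi-square of 35.37 per gene against the other control libraries, where the other 5 had 11.77 to 13.95, and it had the lowest summed FPKM, 290155. Values without mouse 1 are therefore given below. Markers of cortical cells were abundant: Slc17a7 of excitatory neurons had 689 ± 38.0 FPKM in control (SD, n = 6), Sst of inhibitory neurons 293 ± 24.2 FPKM and Mbp of oligodendrocytes 1199 ± 102 FPKM. Haemoglobin and other red blood cell genes summed to between 0.246 and 2.80 FPKM in all 12 libraries. The authors' alignment allowed 1 match per read, and Hba-a1 and Hba-a2 were each listed at more than 1 locus. This sum may therefore understate these genes.

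Cd14 was the most abundant of the 9 genes and the only one whose control and cocktail libraries did not overlap. In control slices it had 13.1, 13.4, 18.2, 16.6, 18.9 and 21.1 FPKM in mice 1 to 6. In cocktail slices of the same mice it had 34.6, 34.4, 41.2, 35.0, 36.4 and 30.8 FPKM. Every cocktail library was above the highest control library, and the highest control and the lowest cocktail value both came from mouse 6.

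The mean level of Cd14 was 16.9 ± 3.16 FPKM in control and 35.4 ± 3.40 FPKM in cocktail slices (SD, n = 6 each), a ratio of 2.10. Within mice the ratio ran from 1.46 in mouse 6 to 2.63 in mouse 1. On the log2(FPKM + 1) scale the mean within-mouse difference was 1.04 (SD 0.30 over 6 mice), and it was higher in 6 of 6 mice. Between 358 and 1006 reads stood behind each of these values. Without mouse 1 the mean difference was 0.98, and without mouse 6 it was 1.14. The locus, on chromosome 18 from 36725064 to 36726815 of mm10 on the minus strand, shares no exon with another annotated gene.

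**Figure D1:**
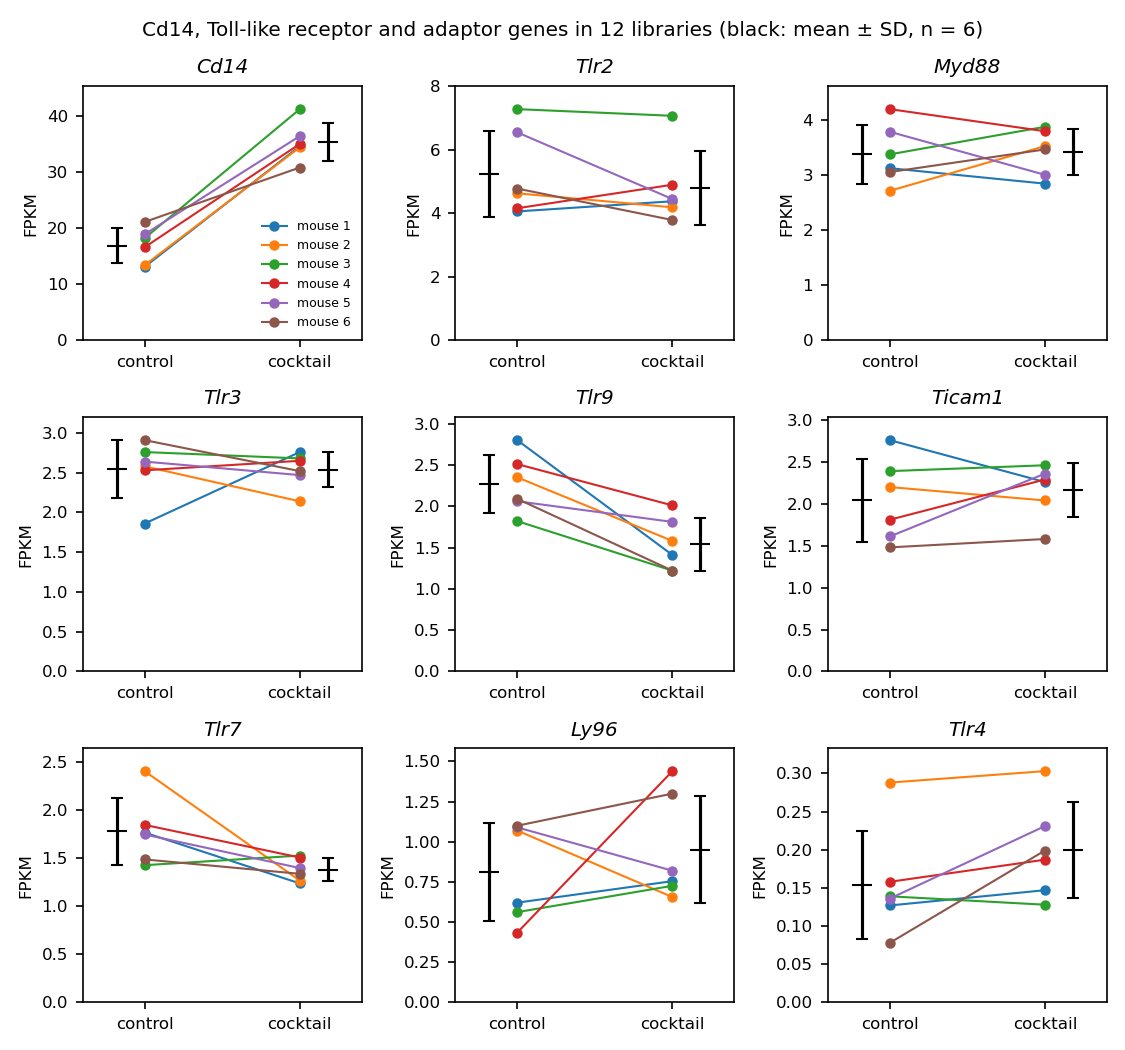
FPKM (vertical axes, each starting at 0) of the 9 genes in control and cocktail slices, in order of their control mean. Points are single libraries, lines join the hemispheres of 1 mouse, and black bars are the mean ± SD of 6 libraries. All 6 lines rise for Cd14, from 13.1 to 21.1 up to 30.8 to 41.2 FPKM, all 6 fall for Tlr9, and the lines of the other 7 genes run in both directions.

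Ly96, the gene of MD-2, was measured thinly. Its level was 0.812 ± 0.306 FPKM in control and 0.950 ± 0.334 FPKM in cocktail slices (SD, n = 6 each), on 4 to 13 reads per library. It was higher in 4 mice and lower in 2, with a mean difference of 0.11 (SD 0.38) on the log2(FPKM + 1) scale. Mouse 4 alone had a difference of 0.77, and without that mouse the mean was -0.03. Without mouse 1 it was 0.11. A change of the size seen in Cd14 was not visible in Ly96, although few reads stood behind it. At a mean of 0.881 FPKM it lay under the minimum of 1 FPKM set for the fit across all loci.

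Among the receptors, Tlr2 had the highest level. Tlr2, which binds bacterial lipoproteins, had a lowest, median and highest level of 4.06, 4.70 and 7.28 FPKM in control and of 3.79, 4.41 and 7.07 FPKM in cocktail slices. The groups overlapped over most of their range. Both highest libraries came from mouse 3, whose hemispheres differed by only -0.04 on the log2 scale. The mean within-mouse difference was -0.10 (SD 0.24), with 2 mice higher and 4 lower, and without mouse 1 it was -0.14.

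Tlr9, a receptor of endosomes for unmethylated CpG DNA, was the gene that ran lower in every mouse. Its control levels in mice 1 to 6 were 2.80, 2.35, 1.82, 2.51, 2.06 and 2.09 FPKM. Its cocktail levels were 1.41, 1.58, 1.22, 2.01, 1.81 and 1.22 FPKM. All 6 cocktail hemispheres were below the control hemisphere of the same mouse, but the groups overlapped, since the cocktail value of mouse 4 was above the control value of mouse 3.

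The mean level of Tlr9 was 2.27 ± 0.354 FPKM in control and 1.54 ± 0.322 FPKM in cocktail slices (SD, n = 6 each), a ratio of 0.678. The mean within-mouse difference was -0.37 (SD 0.19), from -0.66 in mouse 1 to -0.12 in mouse 5. Without mouse 1 it was -0.31. Only 46 to 148 reads stood behind a value, so the counting error relative to the level was larger than for Cd14.

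Tlr7, which binds uridine-rich RNA in the same compartment as Tlr9, ran from 1.43 to 2.41 FPKM in control (median 1.76) and from 1.24 to 1.53 FPKM in cocktail slices (median 1.37). It was lower in 5 of 6 mice, with a mean difference of -0.22 (SD 0.22), and mouse 3 was the exception at 0.05. The groups overlapped, and the largest fall, -0.59, was that of mouse 2, whose control library was the highest. The mean difference was -0.14 without mouse 2 and -0.20 without mouse 1.

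Tlr3, the receptor for RNA duplexes, had nearly the same mean in both groups, 2.55 ± 0.364 FPKM in control and 2.54 ± 0.222 FPKM in cocktail slices (SD, n = 6 each). Its mean difference was 0.00 (SD 0.21), with 2 mice higher and 4 lower. The control library of mouse 1, which stood apart over all genes, was also the lowest for Tlr3 at 1.86 FPKM, and without mouse 1 the mean difference was -0.08. An antisense transcript, Gm45542, overlaps an exon of Tlr3. The libraries were strand specific, but the strand setting of the level estimates is not given in the sources used here.

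Tlr4, the lipopolysaccharide receptor that works with Cd14 and MD-2, had the lowest level of the 9 genes. It had 0.154 ± 0.0709 FPKM in control and 0.199 ± 0.0630 FPKM in cocktail slices (SD, n = 6 each), with 3 to 16 reads per library. Values were higher in 5 of 6 mice, and the groups overlapped. The difference of 0.06 (SD 0.065) is small in part by construction, because 1 FPKM was added before the logarithm: with 0.1 FPKM added, it was 0.25. Without mouse 1 it remained at 0.06. Levels this low could not show a change of modest size.

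Neither adaptor moved in one direction. Myd88 had 3.37 ± 0.536 FPKM in control and 3.41 ± 0.416 FPKM in cocktail slices (SD, n = 6 each), with 3 mice higher and 3 lower and a mean difference of 0.02 (SD 0.21). Ticam1 had 2.04 ± 0.492 and 2.17 ± 0.318 FPKM, with 4 mice higher and 2 lower and a mean difference of 0.07 (SD 0.20). Without mouse 1 the mean differences of Myd88 and Ticam1 were 0.04 and 0.12. Their control and cocktail libraries overlapped throughout. Myd88 shares exon sequence with Acaa1a on the opposite strand.

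**Figure D2:**
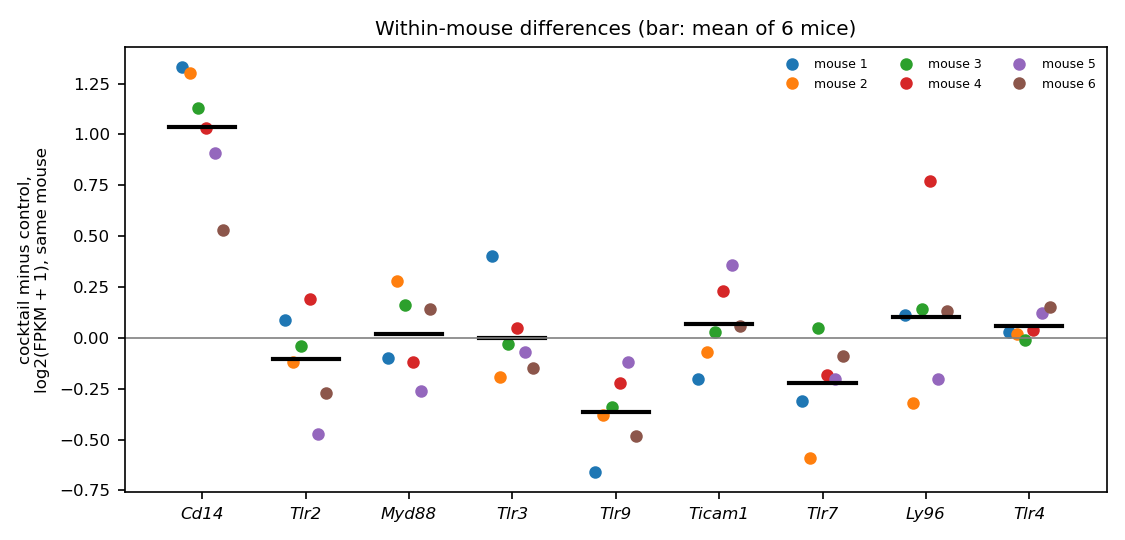
Difference between the hemispheres of each mouse (vertical axis, cocktail minus control, log2(FPKM + 1)) for the 9 genes. Points are mice and bars the mean of 6 mice. Cd14 lies between 0.53 and 1.33 in all 6 mice, Tlr9 between -0.66 and -0.12, and the points of the other 7 genes fall on both sides of 0.

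Cd14 therefore took up a larger part of the summed level of the 9 genes. Its part was 42.3% to 55.4% in control libraries (median 48.2%) and 65.0% to 68.8% in cocktail libraries (median 68.2%). The 5 Toll-like receptors together had 10.6 to 13.4 FPKM in control and 9.07 to 12.6 FPKM in cocktail slices. Cd14 stood at 1.09 to 1.86 times this sum in control libraries and at 3.10 to 3.63 times it in cocktail libraries. The summed receptors differed by -0.20 on the log2 scale (SD 0.16 over 6 mice) and were lower in 5 of 6 mice.

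Across the whole data set, 12032 loci with a mean of at least 1 FPKM were compared with limma with the mouse as a block, and 180 of them, or 1.50%, had an adjusted p under 0.05. Higher loci made up 1.22% and lower loci 0.274% of those tested. Of the 9 genes, 7 entered this fit, and Ly96 and Tlr4 were too low. No call is given for the 7, since the set was chosen with this contrast known. Groups without overlap were found for 0.914% of all loci tested (0.715% higher) and, among the 7, for Cd14 alone. A difference higher in all 6 mice occurred in 3.64% of loci and one lower in all 6 mice in 2.66%.

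The order of the levels was read in the control libraries, which received no drug. By mean FPKM it was Cd14, Tlr2, Myd88, Tlr3, Tlr9, Ticam1, Tlr7, Ly96 and Tlr4. Each gene was compared with the next in the same 6 libraries, for 8 neighbouring pairs, by an exact permutation test that flips the signs of the log2 ratios (two-sided). The smallest p that 6 libraries allow is 0.03125, and it was reached by 4 pairs, Cd14 above Tlr2, Myd88 above Tlr3, Tlr7 above Ly96 and Ly96 above Tlr4, in each of which the upper gene was higher in 6 of 6 libraries. Adjusted over the 8 pairs, these had an exact permutation p of 0.0625, so no neighbouring pair passed 0.05. With 4 of 8 pairs at the smallest p, the adjusted value could not be lower, so this does not show that their levels were alike. The pairs and their order also came from the same control libraries.

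The middle of this order was not separated. Tlr2 exceeded Myd88 in 5 of 6 control libraries by a mean log2 ratio of 0.62 (exact permutation p = 0.0625 before adjustment), and Tlr3 exceeded Tlr9 in 5 of 6 (p = 0.34375, adjusted 0.393). Tlr9 exceeded Ticam1 in 5 of 6 control libraries (exact permutation p = 0.21875, adjusted 0.292) but in 0 of 6 cocktail libraries. Ticam1 exceeded Tlr7 in only 2 of 6 control libraries (exact permutation p = 0.5). In cocktail slices the upper gene of the other 7 pairs was the higher one in 6 of 6 libraries.

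The bases before the start of a gene are where many of its regulators bind. Of the 9 genes, Tlr2, Tlr3, Tlr9, Myd88 and Ticam1 matched the RefSeq promoter table (GRCm38.p6, the assembly behind mm10), and the 250 bases before each start were searched on both strands. The NF-kB consensus was searched, a pattern that allows alternative bases at some positions. Searched too were the core of the interferon-stimulated response element (ISRE: GAAA, any 2 bases, GAAA), the AP-1 site (TGANTCA) and the cAMP response element (TGACGTCA). The sequences of Tlr2, Myd88 and Tlr9 are shown because each holds a different one of these motifs. They are written 5′ to 3′ on the strand of the gene, ending at the base before the start, with matches in capitals. Tlr2 covers chr3:83841609-83841858 on the minus strand, Myd88 covers chr9:119340019-119340268 on the minus strand and Tlr9 covers chr9:106222348-106222597 on the plus strand.
Tlr2: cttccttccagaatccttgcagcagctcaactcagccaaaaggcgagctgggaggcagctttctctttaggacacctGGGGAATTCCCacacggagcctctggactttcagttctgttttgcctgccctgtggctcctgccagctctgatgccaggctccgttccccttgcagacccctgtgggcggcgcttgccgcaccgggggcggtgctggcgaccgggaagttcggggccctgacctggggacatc
Myd88: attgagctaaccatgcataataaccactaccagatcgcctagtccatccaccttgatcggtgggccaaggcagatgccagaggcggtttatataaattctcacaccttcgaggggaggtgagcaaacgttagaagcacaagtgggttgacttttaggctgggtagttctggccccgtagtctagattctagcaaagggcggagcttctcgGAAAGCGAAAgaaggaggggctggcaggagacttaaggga
Tlr9: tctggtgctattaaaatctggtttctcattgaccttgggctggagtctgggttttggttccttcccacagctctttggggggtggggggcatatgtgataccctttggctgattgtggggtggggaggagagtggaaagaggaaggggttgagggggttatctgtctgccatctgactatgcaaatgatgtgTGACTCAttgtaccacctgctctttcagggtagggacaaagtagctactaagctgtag

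In Tlr2, 2 overlapping matches to the NF-kB consensus began 173 and 172 bases before the start. Tlr3 held 1 such match, 211 bases before the start given in the promoter table. The consensus was present in 3.90% of all 32851 promoters of the table. The window of Tlr3 reaches down to base 45410381 and its measured locus up to base 45410539, so part of the window lies within that locus. The ISRE core of Myd88 began 40 bases before the start in the same table, and 2.98% of all promoters held one. The window of Myd88, from base 119340019, also overlaps its measured locus, which ends at base 119340040. The AP-1 site of Tlr9 began 58 bases before the start, and 6.75% of all promoters held one. Ticam1 held none of the 4 motifs in this window, and the cAMP response element, present in 1.55% of all promoters, was in none of the 5. Of the genes with a match, Tlr2, Tlr3, Myd88 and Tlr9 had mean differences of -0.10, 0.00, 0.02 and -0.37, and Ticam1, without one, had 0.07. A match describes letters only, and whether any protein bound there was not measured. The part of a match in these differences was not tested.

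The cells that Cd14 and the receptors are known from were followed by their markers. All 17 microglia markers were tested, and 1, Gpr34, a microglial receptor, was lower, from 3.70 to 2.82 FPKM, with a log2 fold change of -0.30 (adjusted p = 0.0428 from limma). The others were not called, and the 17 ran from -0.30 to 0.21, with a median of 0.07, where Cd14 had 1.04. The highest value was that of Olfml3 (0.21, adjusted p = 0.230). The call of Gpr34 was lost without the block, without the filter on low values, with voom on the recovered reads and when any of mice 1 to 5 was left out (-0.32 to -0.25).

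Summed over the 17 markers, the microglial level was 197 to 215 FPKM in control and 191 to 248 FPKM in cocktail libraries. The sum differed by 0.06 on the log2 scale (SD 0.11 over 6 mice) and was higher in 4 of 6 mice. In mice 1 to 6 the microglial sum differed by -0.09, -0.04, 0.09, 0.10, 0.21 and 0.10. Cd14 stood at 6.31% to 10.3% of the microglial sum in control libraries and at 14.0% to 19.1% of it in cocktail libraries. This percentage carries the change of Cd14 that was already known. Whether the amount of microglia had a part in the level of Cd14 was not tested. In bulk tissue, fewer cells of a type and less RNA per cell cannot be told apart.

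Other immune cells that carry Cd14 or Toll-like receptors were scarce by their markers. The 8 markers of border macrophages and monocytes summed to 2.83 to 4.25 FPKM in control and 3.16 to 4.68 FPKM in cocktail libraries, and 7 of them lay under 1 FPKM. The only one tested, Pf4, was not called (log2 fold change 0.15, adjusted p = 0.739). Of 7 neutrophil markers, 6 had a locus in the expression files. These summed to 1.70 to 2.11 FPKM in control and 1.41 to 1.90 FPKM in cocktail libraries, nearly all of it Csf3r (1.74 and 1.52 FPKM), and Camp was listed at 0 in all 12 libraries. Of 5 red blood cell markers, 4 had a locus, and none reached the minimum for a test.

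Of the other lists, astrocyte markers (8 genes tested), endothelial and mural markers (8), oligodendrocyte markers (6), excitatory neuron markers (8) and inhibitory neuron markers (7) held no called gene. Their medians were 0.06, 0.04, 0.12, -0.05 and 0.08, beside 0.008 over all 12032 loci. The summed level of astrocyte markers was higher in the cocktail hemisphere in 5 of 6 mice, and so were those of oligodendrocyte and inhibitory neuron markers. The part of these small shifts in the values of Cd14 and Tlr9 was not tested.

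**Figure D3:**
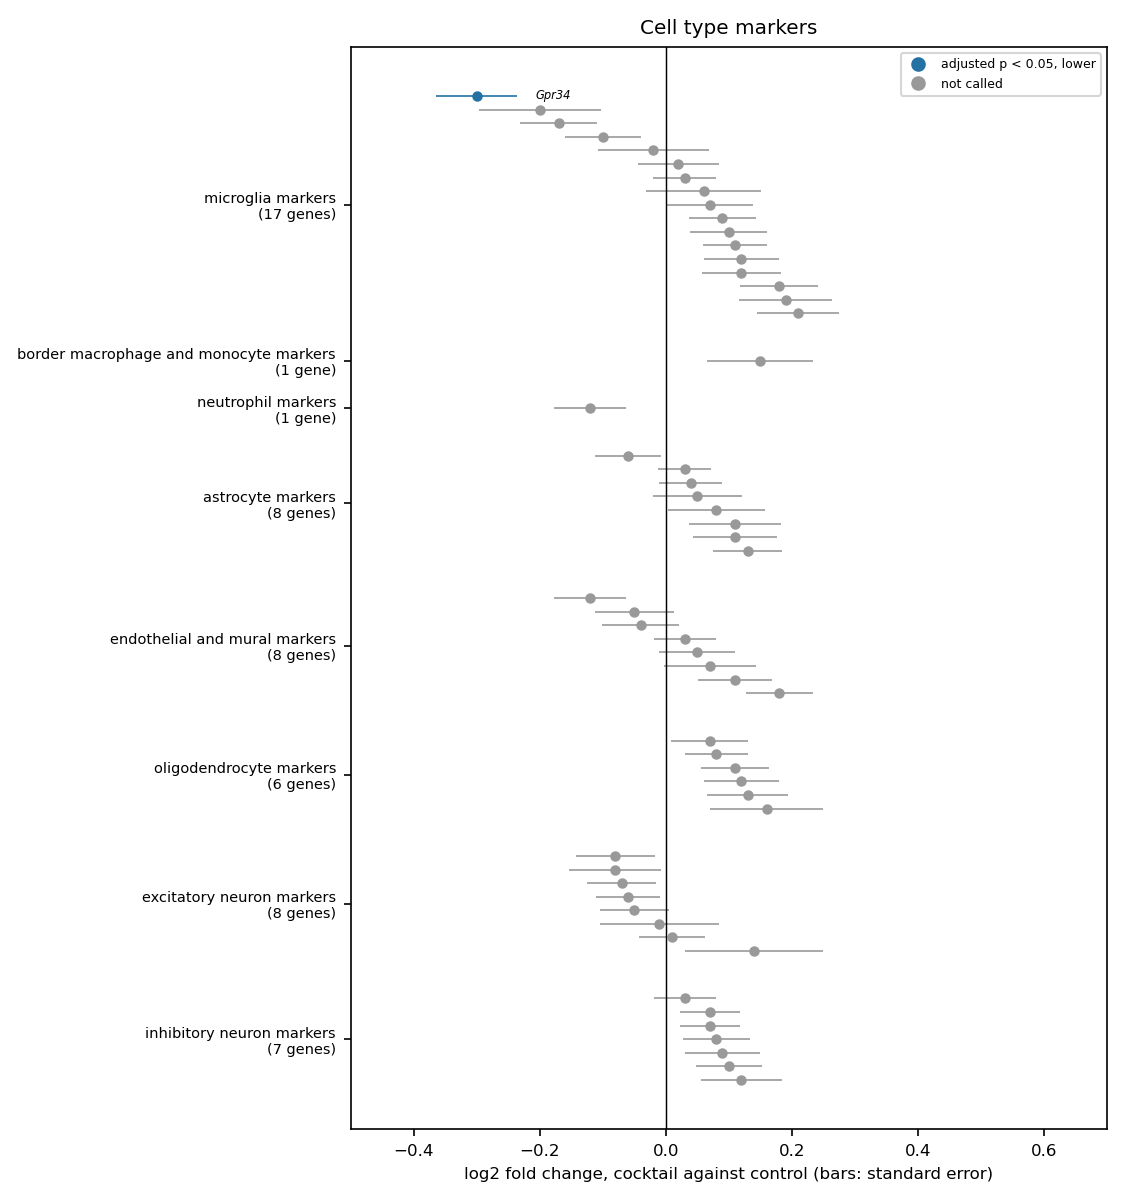
Log2 fold change, cocktail against control (horizontal axis), of the cell type markers tested, grouped by cell type on the vertical axis. Points are genes, bars the standard error of the limma fit, and colour marks an adjusted p under 0.05. Gpr34, at -0.30, is the only coloured point, and no marker lies above 0.21.

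The pathway around the 9 genes was described from 84 further genes in 9 lists ordered by role. Of these, 64 were tested and 15 were called, 2 higher and 13 lower, beside 1.22% higher and 0.274% lower over all loci. The genes that receive and pass on the signal, from receptors to negative regulators, held 2 of the 15 calls among 46 genes tested, with a median log2 fold change of 0.018. The target genes held the other 13 calls among 18 genes tested, with a median of -0.501. Without mouse 1, 12 of the 15 genes were called, all but Irf7, Isg15 and Nfkbiz. The largest log2 fold changes were then -1.60 for Tnf, -1.39 for Cxcl10, -1.29 for Ccl4 and -1.26 for Ccl3 among the lower genes, and 0.94 for Ptgs2. These lists were written with earlier results of the same libraries known, and the counts carry no test of the lists.

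The remaining receptors were few and low. Of 9 genes in the list of other Toll-like receptors and relatives, 7 lay under 1 FPKM, among them Tlr1, Tlr5, Tlr6, Tlr8, Tlr12 and Tlr13, and Tlr11 was listed at 0 in all 12 libraries. The 2 tested were not called. Cd180, which lacks the signalling domain and is known to restrain Tlr4, had 2.18 ± 0.346 FPKM in control and 1.50 ± 0.505 FPKM in cocktail slices (SD, n = 6 each) and was lower in 6 of 6 mice (log2 fold change -0.37, adjusted p = 0.0634). Ly86, its secreted partner and a relative of Ly96, went from 4.32 ± 0.698 to 5.10 ± 0.676 FPKM and was higher in 6 of 6 mice (log2 fold change 0.20, adjusted p = 0.220).

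None of the genes that deliver ligands, fold the receptors or serve as ligands from the tissue itself was called. Among 5 ligand capture and accessory genes tested, the values ran from -0.01 to 0.13. Hsp90b1, a chaperone that the receptors need for folding, had 79.9 and 86.7 FPKM (log2 fold change 0.13, adjusted p = 0.768), and its partner Cnpy3 had 16.6 and 16.5 FPKM. Unc93b1, which carries Tlr3, Tlr7 and Tlr9 to endosomes, had 5.75 and 5.81 FPKM (log2 fold change 0.01). The 7 tissue ligands tested ran from -0.04 to 0.23, and the most abundant, Hspd1 and Hmgb1, had log2 fold changes of 0.03 and 0.12.

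The signal relay was likewise without a call. The 2 other adaptors tested, Sarm1 and Pik3ap1, had log2 fold changes of -0.08 (adjusted p = 0.799) and 0.01 (adjusted p = 0.992). The 16 kinases and ubiquitin ligases tested ran from -0.12 to 0.15, with a median of 0.02. Its most abundant members, Ube2v1 and Ube2n, which together build ubiquitin chains for Traf6, both had 0.04. The 9 negative regulators tested ran from -0.14 to 0.15, among them Tollip (-0.02), Trafd1 (0.07) and Tnfaip3, the gene of the ubiquitin-editing enzyme A20 (-0.14, adjusted p = 0.783).

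Interferon regulatory factors, which turn on the interferon genes at the end of the pathway, were the exception among the relay genes. Irf8, a factor of the macrophage and microglia lineage, ran from 2.37 to 3.12 FPKM in control (median 2.51) and from 1.61 to 2.05 FPKM in cocktail slices (median 1.74). The groups did not overlap, and Irf8 was lower in 6 of 6 mice with a log2 fold change of -0.39 with a standard error of 0.060 (limma, adjusted p = 0.00476). Irf7, the factor downstream of Tlr7 and Tlr9, fell from 1.68 ± 0.427 to 1.15 ± 0.376 FPKM (mean ± SD of 6 libraries), a log2 fold change of -0.32 (adjusted p = 0.0350). Irf7 was lower in 6 of 6 mice, with overlapping groups.

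Of the other 3 factors, Irf1 went from 6.47 to 4.67 FPKM and was lower in 6 of 6 mice without passing the threshold (log2 fold change -0.39, adjusted p = 0.0710). Irf3, the factor used by Ticam1, had 4.76 and 5.22 FPKM (log2 fold change 0.11, adjusted p = 0.674), and Irf5 had a log2 fold change of 0.23 (adjusted p = 0.429). Irf8 was called in every setting that tested it. The call of Irf7 was lost without the block, without the filter on low values, with voom on the recovered reads and when any of mice 1, 2, 4, 5 or 6 was left out (-0.34 to -0.29). Irf7 shares exon sequence with Phrf1 on the opposite strand.

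**Figure D4:**
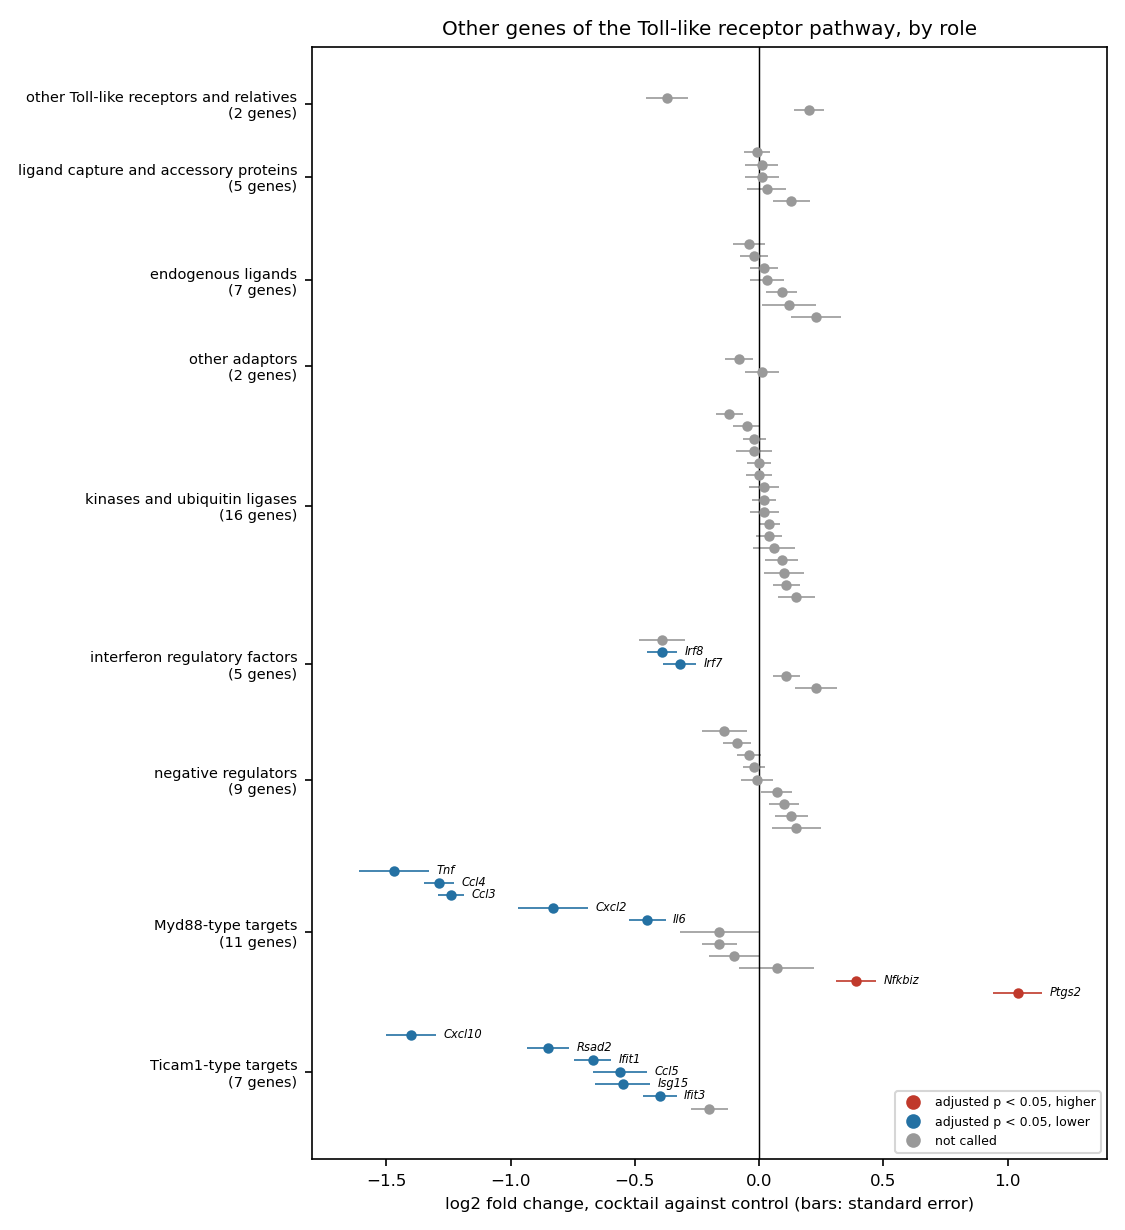
Log2 fold change, cocktail against control (horizontal axis), of the 64 pathway genes tested, grouped by role on the vertical axis. Points are genes, bars the standard error of the limma fit, and colour marks an adjusted p under 0.05. Coloured points lie in the interferon regulatory factors (2 lower) and in the target lists (2 higher, 11 lower).

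The targets known chiefly from the Myd88 arm went in both directions. Of 11 tested, 5 were lower and 2 were higher. The lower genes were Tnf, Il6, Ccl3, Ccl4 and Cxcl2, which encode inflammatory cytokines and chemokines, and all 5 were lower in 6 of 6 mice. The higher genes were Ptgs2, the inducible prostaglandin synthase that neurons also use as an early response gene, and Nfkbiz, a nuclear regulator of NF-kB.

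Tnf ran from 3.37 to 17.1 FPKM in control (median 11.6) and from 1.45 to 5.30 FPKM in cocktail slices (median 2.57). The control libraries differed widely among themselves. Its log2 fold change was -1.47 with a standard error of 0.14 (limma, adjusted p = 0.000136), and the call was lost without the block (adjusted p = 0.0591), the only loss of Tnf in the settings run. Ccl3 ran from 27.3 to 64.6 FPKM in control and from 11.6 to 27.1 FPKM in cocktail slices, without overlap, with within-mouse differences between -1.40 and -1.09. Ccl4, its neighbour on chromosome 11, ran from 19.6 to 56.4 and from 7.33 to 23.6 FPKM, with a log2 fold change of -1.29 (adjusted p = 6.58e-07).

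Il6 fell from 2.37 ± 0.513 to 1.48 ± 0.500 FPKM (mean ± SD of 6 libraries), a log2 fold change of -0.45 (adjusted p = 0.00746), on 17 to 59 reads per library. Cxcl2 fell from 7.37 ± 2.62 to 3.77 ± 1.95 FPKM, with a log2 fold change of -0.83 (adjusted p = 0.0110). Il6 lost its call without the block and with voom, and Cxcl2 in those settings, without the filter on low values and without mouse 4, where it had -0.78. Il1b, the gene of interleukin-1 beta, had 15.0 ± 6.58 and 15.2 ± 5.85 FPKM and differed by 0.07 (adjusted p = 0.951). Nfkbia, the inhibitor that NF-kB itself induces, had a log2 fold change of -0.16 (adjusted p = 0.536).

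Ptgs2 rose as Cd14 did, from between 15.2 and 27.2 FPKM in control to between 37.0 and 46.5 FPKM in cocktail slices, without overlap. Its log2 fold change was 1.04 with a standard error of 0.099 (limma, adjusted p = 0.000119). Nfkbiz rose from 8.38 ± 1.97 to 11.1 ± 1.35 FPKM (mean ± SD of 6 libraries), a log2 fold change of 0.39 (adjusted p = 0.0395). The call of Nfkbiz was lost without the block, without the filter on low values, with voom on the recovered reads and when any of mice 1 to 5 was left out (0.33 to 0.41).

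The targets of the Ticam1 and interferon arm were lower throughout. All 7 genes tested had a negative log2 fold change, 6 of them were called, and the summed level of the 8 listed genes differed by -1.16 on the log2 scale (SD 0.22), with 6 of 6 mice lower. The sum was 22.5 to 42.7 FPKM in control and 9.20 to 22.8 FPKM in cocktail libraries. Cxcl10, a chemokine induced by interferon, had the highest mean level of the 8. It had 12.5 to 22.1 FPKM in control (median 15.5) and 3.28 to 10.3 FPKM in cocktail slices (median 5.36). These groups did not overlap, and the log2 fold change was -1.40 with a standard error of 0.10 (limma, adjusted p = 1.75e-05). Exons of Cxcl10 overlap Art3 on the opposite strand.

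The other called genes of this arm were lower in level. Rsad2, the gene of the antiviral protein viperin, fell from 3.38 ± 1.37 to 1.42 ± 0.730 FPKM (-0.85 on the log2 scale, adjusted p = 0.000191). Ifit1, which binds foreign RNA, fell from 2.48 ± 0.902 to 1.19 ± 0.564 FPKM (-0.67, adjusted p = 0.000439). Ifit3 ran from 1.32 to 2.20 FPKM in control and from 0.940 to 1.31 FPKM in cocktail slices, without overlap (-0.40, adjusted p = 0.0103).

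Isg15, a ubiquitin-like protein, fell from 1.67 ± 0.559 to 0.828 ± 0.430 FPKM (log2 fold change -0.55, adjusted p = 0.0338), and the chemokine Ccl5 from 2.51 ± 2.04 to 1.25 ± 0.952 FPKM (-0.56, adjusted p = 0.0259), lower in 5 of 6 mice. Ifit2 had a log2 fold change of -0.20 and was not called (adjusted p = 0.391). Ifnb1, the gene of interferon beta, had at most 9 reads in a library and was not tested. The call of Ifit3 was lost without mouse 3 or mouse 4 (-0.36 each), that of Isg15 without any of mice 1, 2, 4, 5 or 6 (-0.59 to -0.45), and that of Ccl5 without any of mice 2, 3, 5 or 6 (-0.57 to -0.48). Isg15 and Ccl5 also lost the call without the block, without the filter on low values and with voom, Isg15 with quantile normalization, and Rsad2 and Ifit1 without the block.

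The bases before the starts of 3 of these genes are shown because they hold the ISRE core found for 5 of the 7 genes of this arm that have a promoter in the table, against 3.46% of all genes in it. The list was written from known targets of the interferon arm, so this share describes the list and not these libraries. The bases are written as above, with ISRE, NF-kB and AP-1 matches in capitals. Cxcl10 covers chr5:92348890-92349139 on the minus strand, Rsad2 covers chr12:26456453-26456702 on the minus strand and Ifit1 covers chr19:34640639-34640888 on the plus strand.
Cxcl10: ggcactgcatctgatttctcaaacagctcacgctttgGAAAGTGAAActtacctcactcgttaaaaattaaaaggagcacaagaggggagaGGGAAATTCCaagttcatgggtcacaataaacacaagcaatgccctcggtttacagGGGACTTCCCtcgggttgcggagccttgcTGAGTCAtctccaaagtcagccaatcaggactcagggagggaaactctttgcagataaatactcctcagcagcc
Rsad2: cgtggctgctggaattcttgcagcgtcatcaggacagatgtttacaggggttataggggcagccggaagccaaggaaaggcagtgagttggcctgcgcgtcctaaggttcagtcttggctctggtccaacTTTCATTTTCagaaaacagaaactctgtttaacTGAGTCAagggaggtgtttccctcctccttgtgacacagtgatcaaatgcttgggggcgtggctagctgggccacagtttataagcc
Ifit1: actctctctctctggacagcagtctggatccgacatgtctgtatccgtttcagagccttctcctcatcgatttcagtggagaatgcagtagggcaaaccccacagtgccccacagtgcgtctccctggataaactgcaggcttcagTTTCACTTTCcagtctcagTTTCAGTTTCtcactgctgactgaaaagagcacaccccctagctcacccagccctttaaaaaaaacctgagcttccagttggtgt

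Ifit1 held 2 ISRE cores, beginning 104 and 85 bases before its start, both read on the opposite strand. Rsad2 held 1, beginning 120 bases before its start, and an AP-1 site at 87. Cxcl10 held 1 ISRE core at 213, matches to the NF-kB consensus at 159 and 103 and an AP-1 site at 74. The same core stands 40 bases before the start of Myd88, whose level differed by 0.02. Cxcl10, Rsad2 and Ifit1 differed by -1.40, -0.85 and -0.67. Whether any of these motifs had a part in a difference was not tested. Among the targets of the Myd88 arm, 4 of the 9 genes with a promoter in the table held an NF-kB match there (4.46% of all genes), namely Cxcl1, Cxcl2, Il6 and Nfkbia, of which Cxcl2 and Il6 were called lower. That list too was written from known targets, so this share describes the list and not these libraries.

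Libraries of 1 mouse stood out among the targets. In cocktail slices, mouse 3 had the highest level of 14 of the 18 target genes tested, where the other mice had the highest of 0 or 1 each. In control slices, mouse 3 had the highest level of 6 of the 18. This mouse also had the highest cocktail values of Cd14, 41.2 FPKM, and of Tlr2, 7.07 FPKM. It was singled out after the values were seen. Within mouse 3 the cocktail hemisphere was nevertheless the lower one for 13 of the 18 genes, and without mouse 3 the log2 fold change of Cd14 was 1.02.

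Loci whose 6 within-mouse differences were nearest to those of Cd14 were sought over the 12025 other loci tested, with the root mean square distance in log2 units as the measure. The nearest were Fos (0.12), Btg2 (0.16), Klf4 (0.20), Ier2 (0.20) and Ptgs2 (0.21), where the median locus had 1.07. Fos, Klf4, Btg2 and Ier2 are early response genes of many cell types. Fos went from 322 ± 69.6 to 631 ± 79.5 FPKM and Klf4 from 16.8 ± 3.28 to 37.2 ± 5.23 FPKM (SD, n = 6 each). Like Cd14, each of the 5 had its smallest difference in mouse 6, from 0.57 for Fos to 0.86 for Klf4. The 5 were picked for nearness to the differences of Cd14, so that choice favours a shared low value in mouse 6. A locus without change lies about as far from Cd14 as Cd14 rose, so the 1.07 of the median locus restates that rise. The 6 mice share libraries, depth and dissection across genes, so this likeness is a description of the same 12 libraries.

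**Figure D5:**
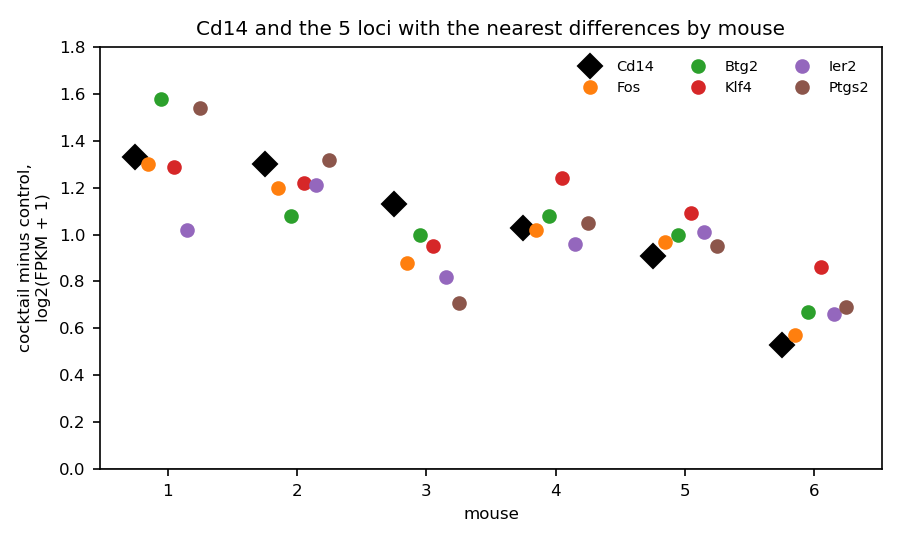
Difference between the hemispheres (vertical axis, cocktail minus control, log2(FPKM + 1)) of Cd14 (black diamonds) and of the 5 nearest loci (coloured circles) in each of 6 mice (horizontal axis). For Cd14 the points run from 1.33 in mouse 1 to 0.53 in mouse 6, and all 6 genes are lowest in mouse 6.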

How the data were processed

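The 12 libraries were poly-A selected, strand specific and sequenced as single reads of 50 bp. Per the study's methods and the submitters' processing notes, the authors removed ribosomal reads with BWA 0.6.1, aligned to mm10 with TopHat 1.4.1 and estimated FPKM with Cufflinks 1.3.0, and these FPKM values were deposited for each library. A further table of the authors comes from HTSeq 0.6.1p1 counts compared with DESeq2 1.6.3, and from it the mean normalized signal alone was used, to check the reads recovered from the FPKM intervals (median ratio 1.002 over 10702 genes). In that table, 1 entry names no gene (0.467% of the summed signal) and was left out. The authors' fold changes, p-values and group means were not used.

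Loci with a mean of at least 1 FPKM were compared as log2(FPKM + 1), which understates changes of low genes, in limma 3.58.1 (R 4.3.3) with the mouse block, a variance trend and Benjamini-Hochberg adjustment at 0.05 over all 12032 loci. Every adjusted p of a pathway or marker gene is from limma. The labels give the mouse of each library, and deviations of hemispheres of the same mouse correlated at 0.216 to 0.406 in all 6 pairs, where control and cocktail libraries of different mice correlated at -0.42 to 0.445 (median -0.071). None of the libraries was a copy. Of 36049 values under 20 recovered reads, 83.4% were whole within 0.05. Counts of reads cover counting error only. Figures used Python 3.11.15 and matplotlib 3.10.9.

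The members and all lists were chosen with earlier results of these data known. Named are the 9 genes, the 5 loci nearest to Cd14, every called pathway or marker gene, the 2 most abundant genes of a pathway list, and of a marker list the most abundant one, with the lowest and highest fold change for microglia. A gene that this rule would name is not reported here. Other genes were added for their role. Alternatives were a pseudocount of 0.1, no filter or a mean of 5 FPKM, no block, 2 other scalings, no variance trend, voom on recovered reads, and each mouse left out.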

Additional observations from a re-analysis of the deposited data

Results flagged for a closer look

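Of 156 sets of 6 libraries or mice examined, 13 had an extreme value separated from its neighbour by a gap past Dixon's 95% limit for 6 values, where chance alone gives about 7.8 (1 in 20). The gap is given as a part of the whole range. The causes were not tested. Of the 9 genes, Tlr2 in cocktail slices had 7.07 FPKM in mouse 3 against 3.79 to 4.90 FPKM (0.661 of the range), and the control level of Tlr3 was 1.86 FPKM in mouse 1, with the others at 2.53 to 2.91 FPKM (0.641).

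Mouse 3 also stood apart among targets in cocktail slices. Ccl5 had 3.06 FPKM in mouse 3 against 0.427 to 1.29 FPKM (0.672), Cxcl2 had 7.58 against 2.46 to 3.98 FPKM (0.704), and Isg15 had 1.69 against 0.499 to 0.744 FPKM (0.794). Ptgs2 was low in the same library, with 37.0 against 44.1 to 46.5 FPKM (0.748).

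The control library of mouse 1 was low for Hspd1, with 39.2 against 53.9 to 59.7 FPKM (0.717), for Slc1a2 of astrocytes, with 224 against 284 to 317 FPKM (0.644), and for Ube2v1, with 90.7 against 97.2 to 100.5 FPKM (0.665). In mouse 2 the within-mouse log2 difference was 0.41 for Cnpy3 against -0.17 to -0.03 (0.760). In mouse 6 it was -0.96 for Irf1 against -0.39 to -0.15 (0.702), and Csf3r in control had 2.03 against 1.62 to 1.75 FPKM (0.682). Klf4 in cocktail slices had 47.6 FPKM in mouse 5 against 33.8 to 37.0 FPKM (0.765).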

How the results depend on the processing

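Over 115 values of the 9 genes under other settings, none changed the direction of Cd14 or Tlr9 and 3 moved by more than the spread between mice: Tlr4, at 0.06, had 0.25 with a pseudocount of 0.1 and 0.38 with voom on recovered reads, and Tlr9, at -0.37, had -0.61 with voom, scales that add less to low values. With no replicate block the loci called went from 180 to 88 and the pathway genes called from 15 to 6, although the mouse numbers pair the libraries. Dropping the block changes no fold change. With voom the counts were 118 and 9, and with a minimum mean of 5 FPKM 7 of 40 pathway genes were called. With mice left out in turn, 104 (without mouse 4) to 181 loci and 10 (without mouse 4) to 12 pathway genes were called. Higher loci made up 81.7% of calls, and 94.7% at a minimum of 5 FPKM. Of 16 called pathway and marker genes, 5 were called in every setting that tested them (Ccl3, Ccl4, Cxcl10, Irf8 and Ptgs2), 11 lost the call in at least 1, and 0 reversed. Of 8 neighbouring pairs in the order of levels, 4 had the upper gene higher in all control libraries, 7 in all cocktail libraries and 4 to 5 with a mouse left out. Ly96 and Tlr4 rest on 4 to 13 and 3 to 16 reads per library, too few to show modest changes.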
